A study of Mus musculus with 10 samples.

Results

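Mbp, Plekhb1, Gpr37l1, Cnp, Cmtm5, Apod, Fxyd1 and Ogn, 8 of the 32285 genes in the count matrices, are genes of the Schwann cell and of the connective tissue around nerves that were found in Sox10-positive, Ptprc-negative barcodes of SW1 tumors. They were chosen by their summed UMIs and their shares of barcodes in earlier results of these same libraries, which showed them in tumor barcodes, so their presence there is a description and is not tested. Tumor barcodes were defined as those with at least 1 unique molecular identifier (UMI, the tag that marks each captured RNA molecule) of Sox10, the transcription factor of the neural crest lineage, and 0 UMIs of Ptprc, which encodes the leukocyte surface protein CD45. Of all barcodes with at least 500 genes and at most 10% mitochondrial UMIs, 265 of 1470 met this definition before treatment (control day 0). At day 7 these were 8996 of 17897 in the control library and 2986 of 9034 in the L-fuc library, and at day 21 they were 483 of 1573 and 321 of 1182.

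SW1 is a mouse melanoma cell line, and it was grown under the skin of the right flank of female C3H/HeJ mice of 4 to 6 weeks. C3H/HeJ is an inbred strain that carries a mutation of the endotoxin receptor gene Tlr4, which all groups share. According to the labels, tumors grew for 10 days (the study's methods give a longer time), a pretreatment pool of 3 mice was then taken at day 0, and the other mice drank control water or water with 100 mM L-fuc (L-fucose, a dietary sugar) until day 7 or day 21. The labels give 5 mice per arm in one protocol and 6 in another. Each condition is a single library made from a pool of mice, so conditions could not be tested against each other, and a difference between 2 libraries cannot be told apart from a difference between pools.

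Schwann cells are the glia of peripheral nerves. They descend from the neural crest, as melanocytes do, and they wrap axons in myelin, a stack of membranes held together by proteins such as Mbp. Melanoma cells can lose pigment genes and express glial genes, and Sox10 is used by both lineages. The Sox10 gate therefore cannot tell SW1 tumor cells from Schwann cells of the host.

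The 8 genes have different roles. Mbp, myelin basic protein, compacts the myelin membranes, and alternative transcripts of the same gene are known in leukocytes. Cnp encodes a cyclic nucleotide phosphodiesterase of the uncompacted part of myelin, Plekhb1 a membrane protein with a pleckstrin homology domain that is found in glia and photoreceptors, and Cmtm5 a membrane protein with a MARVEL domain. Gpr37l1 is a glial G protein-coupled receptor related to Gpr37. Fxyd1, phospholemman, is a regulator of the sodium pump. Apod, apolipoprotein D, is a secreted lipid carrier of Schwann cells and fibroblasts, and Ogn, osteoglycin, is a small leucine-rich proteoglycan of the extracellular matrix.

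On the mouse genome build GRCm38 (GENCODE vM21), Plekhb1 lies at chr7:100642892-100662414 on the minus strand, Gpr37l1 at chr1:135160234-135167681 on the minus strand, Cnp at chr11:100574904-100591729 on the plus strand and Cmtm5 at chr14:54936261-54939274 on the plus strand. Apod lies at chr16:31296192-31314808 on the minus strand, Fxyd1 at chr7:31051678-31057199 on the minus strand and Ogn at chr13:49608046-49624501 on the plus strand. Cnp overlaps Dnajc7 and Ogn overlaps Cenpp, in both cases on the opposite strand. UMIs of such pairs are told apart only as far as the counting used the strand.

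Apod, Gpr37l1 and Ogn are shown here with the 250 bases before their transcription start, because they were 3 of the 4 genes that differed at least 2-fold between the control libraries of day 7 and day 21 and because these bases overlap no annotated transcript of the same gene. The sequences are those of RefSeq (GRCm38.p6), read 5′ to 3′ on the strand of the gene, at chr16:31314809-31315058 for Apod, chr1:135167682-135167931 for Gpr37l1 and chr13:49607765-49608014 for Ogn. Capitals mark ACAAAG or ACAATG, cores of the site bound by SOX proteins such as Sox10, searched on both strands.
Apod: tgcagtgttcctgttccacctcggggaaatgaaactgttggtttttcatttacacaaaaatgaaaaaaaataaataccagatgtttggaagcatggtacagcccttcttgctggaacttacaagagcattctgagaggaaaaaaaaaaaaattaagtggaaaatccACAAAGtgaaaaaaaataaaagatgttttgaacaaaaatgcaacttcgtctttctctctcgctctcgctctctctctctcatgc
Gpr37l1: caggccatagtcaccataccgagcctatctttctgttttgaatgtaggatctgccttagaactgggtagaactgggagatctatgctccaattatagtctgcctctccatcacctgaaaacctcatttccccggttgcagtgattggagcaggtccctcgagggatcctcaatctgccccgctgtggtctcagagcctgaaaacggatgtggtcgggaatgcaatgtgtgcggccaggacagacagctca
Ogn: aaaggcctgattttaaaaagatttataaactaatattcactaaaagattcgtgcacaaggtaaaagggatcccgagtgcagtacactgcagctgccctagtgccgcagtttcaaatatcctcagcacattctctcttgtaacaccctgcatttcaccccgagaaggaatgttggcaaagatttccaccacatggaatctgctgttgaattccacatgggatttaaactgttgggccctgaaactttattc

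Apod held ACAAAG 84 bases before its start, and neither motif was found in these bases of Gpr37l1 and Ogn. Entries were found for 7 of the 8 genes, with 9 starts in all. ACAAAG was also found 167 bases before the start of Cnp and 188 bases before that of Fxyd1, and its reverse complement CTTTGT 230 bases before the second start of Plekhb1. Over all 32851 starts in the table, 16.5% held ACAAAG, 10.7% held ACAATG and 25.2% held either. A match is a description of the letters and does not show binding.

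The 5 libraries held 1725, 20741, 15288, 2754 and 1428 barcodes with 14439185, 119047810, 88986101, 21727157 and 16589803 UMIs, in the order of day 0, then day 7 with control water and with L-fuc, then day 21 with control water and with L-fuc. Lists of 5 values below have the same order. Tumor barcodes were 18.03%, 50.3%, 33.1%, 30.7% and 27.2% of the kept barcodes, although all libraries are labelled as sorted for CD45. Their median depth was 16881, 7411.5, 13921.5, 22158 and 23424 UMIs. The library of control day 7 stood apart, since 41.3% of its Ptprc-positive barcodes also held Sox10, against 1.40%, 17.0%, 3.82% and 8.66% in the others. A UMI of the leukocyte genes Tyrobp, Cd52 or Laptm5 was found in 4.91%, 55.1%, 36.2%, 17.0% and 28.7% of the tumor barcodes. The defining macrophage gene C1qa was at 33.6, 107, 49.4, 12.6 and 31.8 UMIs per 1000000 UMIs (CPM) in tumor barcodes. Fcer1g, also listed as a leukocyte marker, was at 887, 771, 642, 1330 and 816. It was highest at control day 21 and did not follow the order of the libraries in Tyrobp, Cd52 or Laptm5. The sum of the 4 macrophage markers C1qa, C1qb, C1qc and Apoe was 251, 692, 412, 408 and 392 CPM, that of 3 T cell markers at most 23.5 CPM and that of 3 B cell markers at most 2.98 CPM. The sum of 8 fibroblast markers was 336, 287, 214, 408 and 310 CPM, with Col1a1 at 0.437, 33.0, 4.82, 1.77 and 6.23 CPM. The sum of 5 red cell genes was 640 and 1668 CPM in the tumor barcodes of control day 7 and L-fuc day 7, and at most 5.68 in the other libraries. Of the barcode sequences, 706 occurred in more than 1 library, 433 of them in both libraries of day 7. The part of these features in the results was not tested, and results are given without the affected barcodes or library where they change.

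Tumor barcodes carried several Schwann cell markers. Erbb3, a receptor of Schwann cell growth signals, was at 104, 143, 143, 130.1 and 152 CPM, S100b, a calcium-binding protein of glia, at 45.2, 43.5, 50.2, 42.9 and 25.3, and Cdh19, a cadherin of the lineage, at 36.9, 39.8, 43.4, 45.8 and 32.6. Each was found in over 20% of the tumor barcodes of each library. The nerve growth factor receptor gene Ngfr was low, at 4.37, 4.17, 5.65, 0.651 and 3.25 CPM. Among the pigment cell markers, Mitf was at 34.3, 42.4, 37.0, 45.6 and 28.3 CPM and Tyrp1 at 17.2, 24.1, 12.9, 30.5 and 14.8. Tyr, the enzyme of melanin synthesis, was at 0 in the tumor barcodes of all 5 libraries, and Pmel was at most 1.02 CPM. Rab38, a gene of pigment granule transport, was at 47.4, 41.3, 38.1, 58.4 and 39.8 CPM. Of the pigment cell markers named here, Mitf, Tyrp1 and Rab38 were thus found in every library and Tyr in none.

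All 8 genes were found in the tumor barcodes of all 5 libraries. Levels below are UMIs of a gene summed over the barcodes of a class and scaled to a total of 1000000 UMIs in that class (CPM). UMIs are not scaled to transcript length, so levels are compared between libraries and not between genes. Intervals are 95% exact Poisson intervals for sums, exact binomial (Clopper-Pearson) intervals for shares and exact conditional intervals for ratios, and all cover counting error only.

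Among the myelin genes, Mbp was at 134 CPM (124 to 145) in control day 0, 148 (145 to 151) in control day 7, 76.7 (74.1 to 79.3) in L-fuc day 7, 71.3 (66.3 to 76.5) in control day 21 and 46.3 (41.5 to 51.5) in L-fuc day 21. The highest library stood 3.19 times above the lowest, and the intervals of L-fuc day 7 and control day 21 overlapped. Cnp was at 343, 259, 197, 333 and 236 CPM. Its highest library, control day 0, was 1.74 times the lowest, L-fuc day 7, and the intervals of control day 0 and control day 21 overlapped.

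Among the membrane proteins of glia, Plekhb1 was at 207, 155, 173, 245 and 199 CPM, highest in control day 21 and lowest in control day 7, a ratio of 1.58. Its intervals overlapped between control day 0 and L-fuc day 21. Gpr37l1, the receptor, was at 64.0, 49.96, 60.0, 102 and 55.9 CPM. Control day 21 stood above the other libraries, whose neighbouring intervals all overlapped, and the highest to lowest ratio was 2.04. Cmtm5 was at 167, 142, 154, 174 and 125 CPM, the narrowest spread of the 8 genes, with a ratio of 1.39 and overlapping intervals among control day 21, control day 0 and L-fuc day 7 as neighbours. Fxyd1, the regulator of the sodium pump, was at 519, 521, 514, 430 and 343 CPM. The first 3 of these values lay within overlapping intervals and the values of day 21 were lower, with a ratio of 1.52.

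Among the secreted proteins, Apod was at 709 (685 to 734), 789 (783 to 796), 1325 (1314 to 1336), 346 (335 to 358) and 404 (389 to 418) CPM. This was the widest spread of the 8 genes, a ratio of 3.83 between L-fuc day 7 and control day 21, and no neighbouring intervals overlapped. A single barcode of L-fuc day 21 held 845 of the 2981 UMIs of Apod there, and without it the level of that library was 290.2 CPM (278 to 303), below control day 21. Ogn was at 111, 92.7, 131, 188 and 117 CPM, highest in control day 21 and lowest in control day 7, a ratio of 2.03. The intervals of L-fuc day 21 and control day 0 overlapped.

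**Figure D1:**
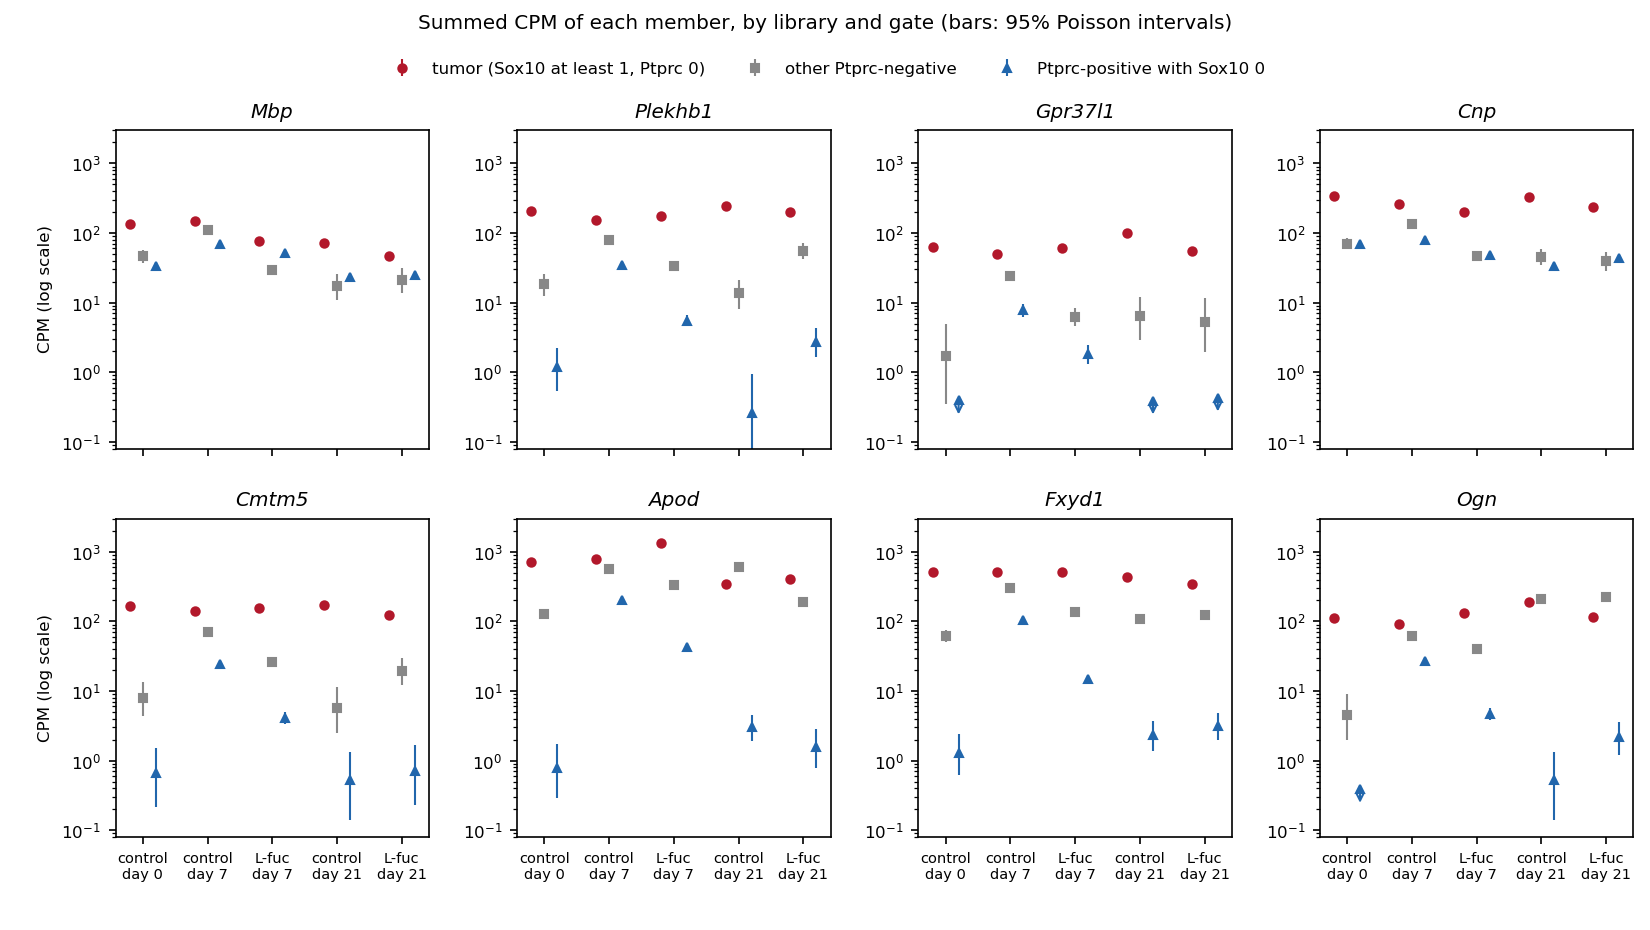
CPM (log scale) of each gene in each library, for tumor barcodes (red circles), other Ptprc-negative barcodes (grey squares) and Ptprc-positive barcodes with Sox10 at 0 (blue triangles), with 95% Poisson intervals and with a downward mark at the 3-count limit where no UMI was found. Mbp and Cnp keep a level above 20 CPM in the leukocytes of every library, and in the day 21 libraries Ogn is higher in other Ptprc-negative barcodes than in tumor barcodes, at control day 21 within the interval of the ratio.

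The share of tumor barcodes with at least 1 UMI followed depth as well as level, so it is given raw and after each barcode was thinned to 2000 UMIs, which left 252, 8485, 2809, 461 and 241 barcodes. Fxyd1 was found in 93.96%, 81.5%, 88.7%, 88.4% and 73.5% of tumor barcodes, and in 65.1%, 57.2%, 58.9%, 56.4% and 47.7% after thinning. The thinned shares of this pump regulator kept the low value of L-fuc day 21. Mbp was found in 52.8%, 42.7%, 31.2%, 39.8% and 27.7%, and in 20.2%, 21.5%, 11.5%, 11.7% and 9.54% after thinning. Apod was found in 77.4%, 71.1%, 76.7%, 64.0% and 51.7%, and in 42.5%, 46.3%, 53.8%, 28.4% and 27.4% after thinning. The thinned shares of Apod and of Mbp thus kept the highest library that their levels had. Gpr37l1 was found in 12.7%, 8.91%, 10.4%, 20.8% and 9.13% of thinned barcodes, again highest in control day 21. Thinned shares of Plekhb1 ran from 25.1% to 34.3%, of Cnp from 28.8% to 43.7%, of Cmtm5 from 21.6% to 29.3% and of Ogn from 15.5% to 24.7%.

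The genes differed in how evenly they were spread over the tumor barcodes. The 10% of tumor barcodes with the most UMIs of Mbp held 55.9% to 80.4% of all UMIs of Mbp, depending on the library, and the corresponding 10% for Apod held 60.1% to 76.4%. For Fxyd1 this share was 25.4% to 32.8%. That of Sox10 was 23.8% to 31.3%, but the gate requires Sox10 in each tumor barcode, so it is no measure of an even spread. The barcode with the most UMIs of Apod held 28.3% of them at L-fuc day 21, and 2 barcodes with 37 UMIs each held the most Mbp, of 342 UMIs in that library. The UMIs of Mbp and Apod were thus held by fewer barcodes than those of Fxyd1. A gene found in few barcodes reaches a high share by that alone, and Mbp was found in fewer barcodes than Fxyd1. How much of its share came from this was not tested.

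The question of whether these genes mark the tumor compartment was addressed by comparing tumor barcodes with Ptprc-positive barcodes. Against all Ptprc-positive barcodes, 0 of the 8 genes were at least 2-fold higher in every library, and 0.562% of the 12809 genes with at least 10 UMIs in each comparison were. This rested on control day 7, where the ratios of the 8 genes lay between 1.37 and 1.92 and 2.42% of all genes reached 2-fold. Without control day 7 the count was 7 of 8, against 16.9% of all genes, and against Ptprc-positive barcodes with Sox10 at 0 it was 7 of 8 in every library, against 16.1% of all genes. The exception was Mbp in both cases. The 2-fold shares of all genes in the single libraries were 30.1% at control day 0, 19.8% at L-fuc day 7, 36.2% at control day 21 and 36.3% at L-fuc day 21. The rule chose the genes in this contrast, so the counts are a description.

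Mbp and Cnp were also found in leukocytes, here the Ptprc-positive barcodes with Sox10 at 0. Mbp was at 33.8, 68.8, 52.0, 23.1 and 24.7 CPM there, so that the tumor level was 3.97-, 2.15-, 1.47-, 3.08- and 1.88-fold higher. It was found in 22.3%, 21.3%, 25.3% and 25.1% of these barcodes in the libraries other than control day 21, and in 141 of 705 at control day 21. Cnp was at 70.5, 79.3, 48.4, 33.6 and 43.5 CPM, and the tumor level was 4.86-, 3.26-, 4.07-, 9.90- and 5.44-fold higher. At control day 0, where few leukocytes held Sox10, Mbp was at 53.6 CPM in T cells (n = 399), 41.0 in B cells (n = 173), 73.8 in NK cells (n = 37), 24.2 in macrophages (n = 328) and 43.8 in dendritic cells (n = 175), each class gated by its markers. Cnp was at 95.4, 118, 98.4, 40.2 and 91.3 CPM in the same classes. The classes overlap, since a barcode could meet several gates and this library held 777 leukocyte barcodes. Both genes were lowest in macrophages.

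The other 6 genes were at most 3.18 CPM in the leukocytes of the 3 libraries outside day 7. Plekhb1 was at 1.18, 34.2, 5.52, 0.261 and 2.74 CPM in leukocytes, and Cmtm5 at 0.654, 24.4, 4.14, 0.523 and 0.722. Gpr37l1 was at 0, 7.75, 1.83, 0 and 0, so that the 3-count limit gives a tumor level at least 163-fold higher at control day 0, at least 259-fold higher at control day 21 and at least 129-fold higher at L-fuc day 21. Both glial membrane proteins and the receptor had their highest leukocyte level at control day 7. Fxyd1 was at 1.31, 106, 15.1, 2.35 and 3.18 CPM and Apod at 0.785, 201, 42.8, 3.01 and 1.59. Ogn was at 0, 27.2, 4.67, 0.523 and 2.17, which gives a tumor level at least 283-fold higher at control day 0. The secreted proteins thus showed the same order of libraries at day 7 as the membrane proteins.

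These 6 genes stood in a narrower range of ratios between tumor barcodes and leukocytes at L-fuc day 7 than at control day 7. At L-fuc day 7 the tumor level was 31.4-fold higher for Plekhb1, 32.9-fold for Gpr37l1, 37.3-fold for Cmtm5, 31.0-fold for Apod, 34.0-fold for Fxyd1 and 28.1-fold for Ogn. At control day 7 the ratios were 4.53, 6.45, 5.81, 3.93, 4.89 and 3.42 in the same order, and the intervals of Gpr37l1 (5.24 to 8.03) and Ogn (3.05 to 3.83) did not overlap. Mbp and Cnp lay below this range in both libraries, except that Cnp at 3.26-fold was close to Ogn in control day 7. RNA from other cells in the droplets was not measured separately, and its part in these leukocyte levels was not tested.

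All 8 genes were also found outside the tumor and leukocyte gates, in the other Ptprc-negative barcodes. At control day 7 the tumor levels were 1.35-fold (Mbp) to 2.08-fold (Gpr37l1) higher than there. The median depth of these barcodes was 2543, 2128, 1903.5, 1755 and 1404.5 UMIs, below that of tumor barcodes. At such depth a barcode can have 0 UMIs of Sox10 although its cell expressed it, and how many did was not tested. In the other Ptprc-negative barcodes of control day 21, Apod was at 613 CPM, so that the tumor level was 0.565 (0.525 to 0.609) of it, and Ogn was at 208 CPM, with a tumor level 0.903 (0.800 to 1.03) of it. At L-fuc day 21 the ratio of Ogn was 0.522 (0.454 to 0.605). In the 24 barcodes of control day 21 gated as fibroblasts, cells of the connective tissue, Apod was at 1643 CPM, Ogn at 559 and Fxyd1 at 257. Mbp was at 9.80 and Plekhb1 at 5.88 CPM there, on 5 and 3 UMIs. The same gate at control day 0 held 38 barcodes with Mbp at 195, Cnp at 177 and Ogn at 13.6 CPM. The gate was not equally clean, since its markers Lum and Dcn were also found in tumor barcodes, Lum at 283, 172, 168, 330 and 231 CPM.

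**Figure D2:**
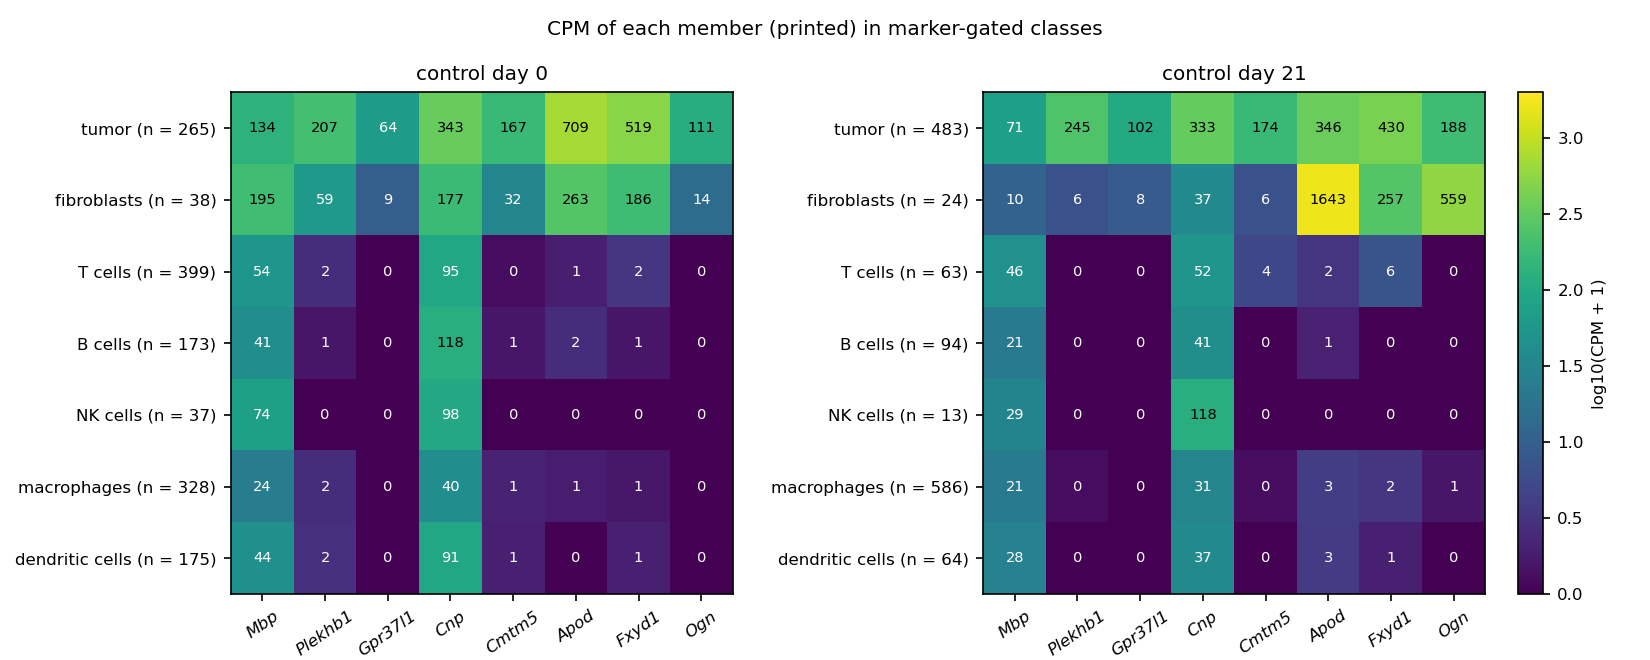
Heat map of CPM (printed, colour on a log10 scale of the value plus 1) of the 8 genes in tumor barcodes and in classes gated by markers, for control day 0 (left) and control day 21 (right), with leukocyte classes restricted to barcodes with Sox10 at 0. Mbp and Cnp are above 20 CPM in each leukocyte class, and the fibroblast gate of control day 21 shows Apod at 1643 and Ogn at 559.

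Tumor barcodes usually held several of the 8 genes. The median number found was 6, 4, 5, 6 and 5, and at least 4 were found in 83.4%, 65.2%, 72.2%, 81.8% and 64.8% of tumor barcodes. None was found in 1.89%, 3.00%, 3.28%, 4.14% and 11.5%. In leukocytes with Sox10 at 0, at least 4 were found in 0%, 5.79%, 1.31%, 0% and 0%. After thinning to 2000 UMIs, at least 4 were found in 28.6%, 20.8%, 21.5%, 26.0% and 15.4% of tumor barcodes, and none in 9.13%, 9.05%, 10.9%, 9.54% and 11.6%. The share without any of the 8 genes thus ran from 9.05% to 11.6% over the libraries at equal depth.

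Pairs of genes were mostly found together more often than the product of their shares. At least 1.5 times the product in both libraries of day 7 was reached by 0 of the 28 pairs. In the thinned barcodes described here this was also 0 of 28. The ratio cannot exceed 1 divided by the larger of the 2 shares. Before thinning, pairs with Fxyd1, Apod or Cnp could therefore not reach 1.5 in these libraries. The limit is higher for pairs of rarer genes, so ratios of different pairs are not directly comparable. The median ratio in thinned barcodes over the 28 pairs was 1.12, 1.15, 1.18, 1.17 and 1.17 in the 5 libraries, and 8, 3, 5, 4 and 8 pairs were under 1. High ratios in the large libraries of day 7 were those of Gpr37l1 with Ogn (1.49 at control and 1.55 at L-fuc), Gpr37l1 with Plekhb1 (1.49 and 1.36) and Gpr37l1 with Cmtm5 (1.43 and 1.45). Plekhb1 with Ogn had 1.37 and 1.34, and Mbp with Cnp, the 2 myelin genes, 1.35 and 1.51. A second random draw of the thinning gave 1.28 and 1.42 for Mbp with Cnp, so the place of this pair depended on the draw.

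After thinning, Mbp and Apod were found together less often than the product of their shares in all libraries but L-fuc day 21. The thinned ratio was 0.739, 0.797, 0.664, 0.587 and 1.27. The last 2 values rested on few barcodes with both genes, 9 at control day 21 and 8 at L-fuc day 21. Before thinning the ratio was 0.905, 0.971, 0.921, 1.08 and 1.33, above 1 in both libraries of day 21. On the log scale of UMIs per 10000, their Pearson correlation across tumor barcodes was -0.31, -0.16, -0.20, -0.09 and 0.03. That of Plekhb1 and Cnp was 0.49, 0.32, 0.47, 0.51 and 0.40. These correlations run over barcodes that share a library and differ in depth, and they are given as a description. L-fuc day 21 was the exception for Mbp and Apod in the thinned ratio and in the correlation.

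**Figure D3:**
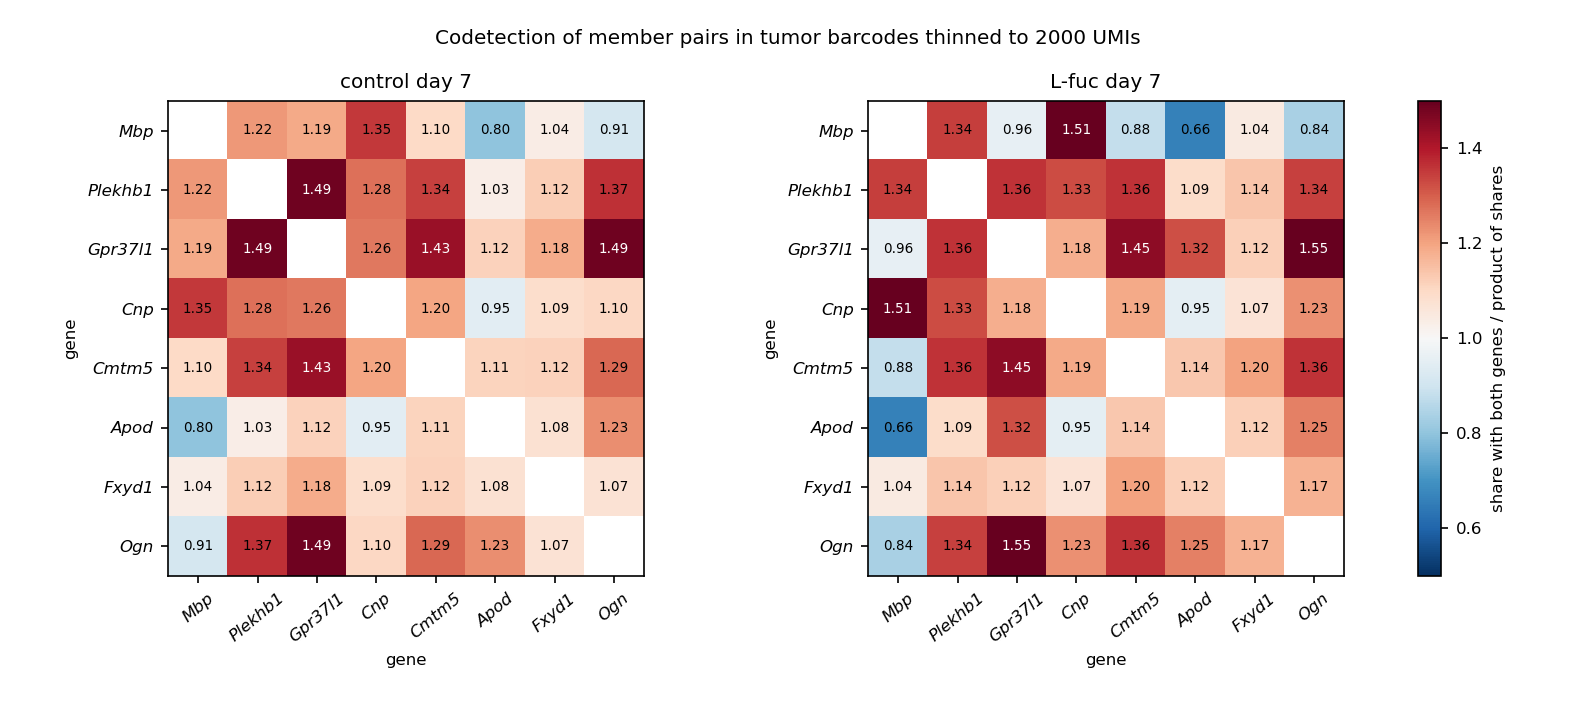
For each pair of genes, the share of tumor barcodes with both genes divided by the product of the 2 shares, after thinning each barcode to 2000 UMIs, at control day 7 (left) and L-fuc day 7 (right). Values above 1 are red and below 1 blue, and Mbp with Apod has the lowest value in both libraries, 0.80 and 0.66.

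The genes whose levels followed the 8 genes most closely were found by correlation across the tumor barcodes of control day 7, among 9423 genes found in at least 5% of them. With the mean of the 8 genes these were Mgp (Pearson r = 0.50, and 0.66 at L-fuc day 7), Sparc (0.46 and 0.48), Selenow (0.45 and 0.47), Selenom (0.44 and 0.48) and Ecrg4 (0.44 and 0.53). Mgp and Sparc encode secreted matrix proteins. For Mbp the nearest genes included Cldn19 (0.40 and 0.50), a tight junction protein of Schwann cells, and Ccnd3 (0.35 and 0.43). For Apod they were Fth1 (0.35 and 0.42), Trf (0.32 and 0.46) and Ecrg4, and for Ogn they were Trf (0.30 and 0.48), Lum (0.28 and 0.40) and Ecrg4. Fth1 and Trf encode ferritin heavy chain and transferrin, which store and carry iron. For Plekhb1 they were Cuedc2, Sparc and Cnp, for Gpr37l1 Mgp, Serpine2 and Arpc1b, and for Cnp Sparc, Cuedc2 and Pou3f1. For Cmtm5 they were Dbi, Mgp and Ecrg4, and for Fxyd1 Tpt1 and the ribosomal protein genes Rpl13 and Rps10.

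Barcodes rich in Mbp also held more of other myelin genes, though to differing degrees. Tumor barcodes of 10000 to 30000 UMIs with at least 3 UMIs of Mbp (53, 527, 310, 77 and 17 barcodes) were set against those with 0 (85, 1160, 1254, 146 and 61). Cldn19 had log2 ratios of 3.82, 3.82, 4.78, 3.597 and 3.69, and Prx, which encodes periaxin of the myelin sheath, of 3.17, 2.31, 3.09, 1.74 and 2.20. Both are thus at least 3 times as high with Mbp in every library. Other genes of the myelin list moved less, such as Pmp22 at 0.57, 0.77, 0.46, 0.19 and 0.92. Cadm4 was at 0.33, 0.41, 0.40, 0.31 and 0.23, the last with an interval of -0.02 to 0.47. Egr2, the transcription factor that turns on myelin genes, had log2 ratios of 1.16, 1.85, 1.89, 1.36 and 1.77, and Pou3f1, a factor that acts before it, of 1.14, 1.02, 1.24, 0.82 and 1.52. Cnp, the other myelin gene of the 8, had ratios of 0.97, 1.06, 1.23, 0.97 and 1.11. Sox10 moved little, at 0.18, 0.21, 0.08, 0.27 and -0.13.

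Apod was lower in the Mbp-rich barcodes, at 262 against 878 CPM in control day 0, 613 against 733 in control day 7, 638 against 1606 in L-fuc day 7, 205 against 571 in control day 21 and 216 against 890 in L-fuc day 21. The log2 ratios were -1.74, -0.26, -1.33, -1.48 and -2.03. At L-fuc day 21 the size rested on the barcode with 845 UMIs, and without it Apod was at 216 against 249.6 CPM (log2 ratio -0.20, -0.58 to 0.14). In the other 4 libraries the ratio without the barcode richest in Apod ran from -1.74 to -0.26. Pgf, a gene raised by low oxygen, had ratios of -1.82, -1.02, -1.51, -1.70 and 0.03. Car9, another such gene, had ratios of -0.33 (-0.84 to 0.13), -0.21, -1.46, -1.68 and 0.69 (-0.04 to 1.34). These genes other than the 8 were looked at after their correlations with Mbp were known.

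Tumor barcodes with proliferation genes held less of all 8 genes. A UMI of the proliferation genes Mki67 or Top2a was found in 32.8%, 46.8%, 36.0%, 46.2% and 57.9% of tumor barcodes. Each of the 8 genes was lower in barcodes with such a UMI than without in all 5 libraries, where 40.1%, 41.7%, 40.6%, 43.9% and 46.3% of all genes were lower. The median log2 ratio of the 8 genes was -0.47, -0.37, -0.58, -0.68 and -0.69, against 0.11, 0.05, 0.08, 0.06 and 0.04 over all genes. At least 2-fold lower were Apod at control day 0 (405 against 928 CPM, where 2.95% of all genes were 2-fold lower), Mbp (44.9 against 104), Apod (216 against 507) and Ogn (113 against 281) at control day 21 (2.65% of all genes), and Mbp (24.96 against 92.3) and Apod (194 against 856, and 194 against 501 without the barcode with 845 UMIs) at L-fuc day 21 (4.22% of all genes). In the libraries of day 7 none of the 8 reached 2-fold, where 1.21% (control) and 2.11% (L-fuc) of all genes did. Among barcodes of 10000 to 30000 UMIs the 8 genes were again all lower, and at L-fuc day 21 the intervals of 6 of the 8 stayed below 0. Control day 21 lost its 2-fold calls at this depth, with log2 ratios of -0.995 for Mbp, -0.98 for Apod and -0.71 for Ogn, and the other 3 calls were kept. The call of Mbp at L-fuc day 21 was not computed without the 2 barcodes that held 37 UMIs of Mbp each.

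Barcodes with a UMI of Car9 or Pgf, genes raised by low oxygen, had more Apod in 4 of the 5 libraries. They had less of Mbp, Cnp and Plekhb1 in all 5. Such barcodes were 36.2%, 37.9%, 53.1%, 46.2% and 37.7% of the tumor barcodes. Apod was at 951 against 566 CPM, 1049 against 590, 1604 against 941, 393 against 296 and 461 against 335. The direction at L-fuc day 21 rested on the barcode with 845 UMIs of Apod, which held 2 UMIs of Car9 or Pgf, and without it Apod was at 253 against 335 CPM (log2 ratio -0.41, -0.53 to -0.28). Mbp was lower in all 5, at 65.7 against 175, 105 against 181, 43.2 against 123, 43.7 against 101 and 28.01 against 68.3. Cnp was lower in all 5 as well, with log2 ratios of -1.01, -0.66, -0.91, -0.51 and -0.63. Plekhb1 was lower too, at -0.55, -0.36, -0.43, -0.27 and -0.32. Gpr37l1 had log2 ratios of -0.06, -0.18, -0.09, -0.39 and -0.11, with intervals that included 0 at control day 0 and in both L-fuc libraries. Cmtm5 had -0.65, -0.33, -0.34, -0.02 (-0.15 to 0.11) and -0.21. Fxyd1 had -0.05, 0.04, -0.01, 0.19 and 0.003, with intervals above 0 at control day 7 and control day 21 only. Ogn had -0.86, -0.11, 0.02, -0.24 and -0.17, with intervals that included 0 in both L-fuc libraries. At 10000 to 30000 UMIs, Gpr37l1 had 0.08 at control day 0 and 0.07 at control day 7. Cmtm5 had 0.03 at control day 21, and the intervals of these values included 0. Of all genes, 66.6%, 71.3%, 69.4%, 65.0% and 63.9% were lower, at median log2 ratios of -0.20, -0.13, -0.16, -0.10 and -0.09. The 2-fold lower calls were Mbp in all libraries but control day 7 and Cnp at control day 0, where 6.85%, 2.67%, 2.97%, 1.97% and 3.26% of all genes were 2-fold lower in the 5 libraries. At L-fuc day 21 the call of Mbp rested on 113 against 229 UMIs. It was not computed without the 2 barcodes that held 37 UMIs of Mbp each. At 10000 to 30000 UMIs, Apod had log2 ratios of 1.05, 0.80, 0.85, 0.41 and 1.69, the last of which was 0.30 (0.12 to 0.48) without that barcode. At control day 0 it was 0.86 without the barcode richest in Apod, under 2-fold. Mbp had ratios of -1.42, -0.37, -1.59, -1.27 and -1.28 at this depth, and Cnp at control day 0 had -0.86, no longer 2-fold lower.

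**Figure D4:**
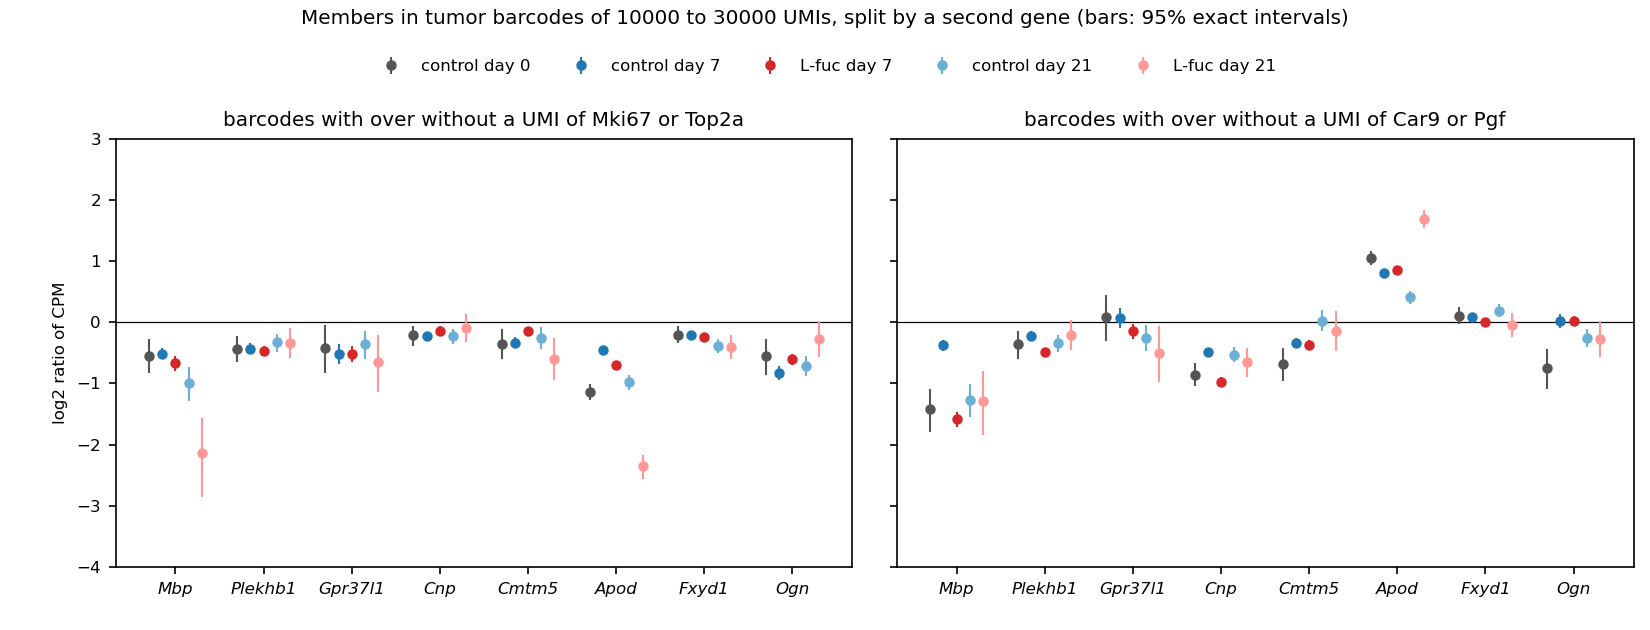
Log2 ratio of CPM of each gene between tumor barcodes of 10000 to 30000 UMIs with and without a UMI of Mki67 or Top2a (left) and of Car9 or Pgf (right), 1 point per library with its 95% interval. All points lie below 0 on the left. On the right, Apod lies above 0 and Mbp, Plekhb1 and Cnp below 0 in the 5 libraries. The Apod point of L-fuc day 21 at 1.69 falls to 0.30 without 1 barcode.

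The effect of L-fuc was addressed by comparing the tumor barcodes of L-fuc and control at each time point. At day 7, 0 of the 8 genes differed at least 2-fold, as 8.09% of 15794 genes did. Such shares include genes with as few as 10 UMIs in the 2 sums together, which counting error alone can move past 2-fold. The 8 genes held at least 2580 UMIs in each of these libraries, and the share among genes of like count is not given. Over all depths, Mbp was nearest to this limit, with 76.7 against 148 CPM, a log2 ratio of L-fuc over control of -0.95 (-1.004 to -0.891). Apod was higher, at 1325 against 789 CPM (log2 ratio 0.75), and so was Ogn, at 131 against 92.7 (0.50). Cnp was lower, with a log2 ratio of -0.39, and Plekhb1, Gpr37l1, Cmtm5 and Fxyd1 had ratios of 0.16, 0.27, 0.12 and -0.02. Over all depths the median of the 8 genes was 0.14 and that of all genes -0.04. Among tumor barcodes of 10000 to 30000 UMIs, Apod was nearest to the 2-fold limit, at 1427 against 717 CPM (log2 ratio 0.99, 0.97 to 1.01). None of the 8 genes reached 2-fold at this depth either. Ogn was at 142 against 78.7 CPM there, Gpr37l1 at 66.8 against 38.5 and Plekhb1 at 191 against 137. Each of these was further apart than over all depths, and Mbp (78.9 against 123) and Cnp (209 against 250) were closer.

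At day 21, 0 of the 8 genes differed at least 2-fold between L-fuc and control, as 5.51% of 12878 genes did. Gpr37l1 was lower at L-fuc, with 55.9 against 102 CPM (log2 ratio -0.86, -1.03 to -0.70), Ogn with 117 against 188 (-0.69) and Mbp with 46.3 against 71.3 (-0.62). Cnp, Cmtm5, Fxyd1 and Plekhb1 had log2 ratios of -0.49, -0.48, -0.32 and -0.30. Apod was at 404 against 346 CPM (0.22, 0.15 to 0.29), a direction that over all depths rested on 1 barcode. Without the barcode richest in Apod in each library it was at 290.2 against 322 (-0.15, -0.23 to -0.07), and leaving it out at day 7 gave 0.74. Among tumor barcodes of 10000 to 30000 UMIs, and again without the richest barcodes, Apod at day 21 was at 464 against 420 CPM (0.14, 0.04 to 0.25). The sign without the richest barcodes thus depended on depth. At this depth the genes other than Apod were still lower with L-fuc, but each was less far apart than over all depths. Gpr37l1 was at 82.9 against 119 CPM and Ogn at 190 against 242. Mbp was at 77.6 against 95.6 and Plekhb1 at 255 against 280, both with overlapping intervals. Over all depths the median of the 8 genes was -0.48 and that of all genes 0.00. Mbp and Cnp were lower with L-fuc at both times, whereas Plekhb1, Gpr37l1, Cmtm5 and Ogn had opposite signs at day 7 and day 21.

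In the control libraries, 0 of the 8 genes differed at least 2-fold between day 0 and day 7, as 15.3% of 15065 genes did. The log2 ratios of day 7 over day 0 were -0.42 for Plekhb1, -0.41 for Cnp, -0.36 for Gpr37l1, -0.26 for Ogn and -0.24 for Cmtm5, and 0.15 for Apod, 0.14 for Mbp and 0.01 for Fxyd1. Control day 7 is shared by this comparison and by 2 of the others, so their ratios are not independent.

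From day 7 to day 21 of control, 4 of the 8 genes differed at least 2-fold, where 16.9% of 15256 genes did, 8.19% higher and 8.68% lower. The receptor Gpr37l1 was 2.04-fold higher at day 21 (102 against 49.96 CPM, log2 ratio 1.03, 0.93 to 1.12) and the proteoglycan Ogn 2.03-fold higher (188 against 92.7, log2 ratio 1.02, 0.95 to 1.09). Mbp was lower, at 71.3 against 148 (log2 ratio -1.05, -1.16 to -0.95), and Apod was lower, at 346 against 789 (-1.19, -1.24 to -1.14). Plekhb1, Cnp and Cmtm5 had ratios of 0.66, 0.36 and 0.29 and Fxyd1 of -0.28. The median over all genes was 0.16, and relative to it Gpr37l1 stood at 0.87 and Ogn at 0.86, under 2-fold, and Mbp at -1.21 and Apod at -1.35.

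The differences of Mbp and Apod between these libraries became smaller at matched depth. In tumor barcodes of 10000 to 30000 UMIs, Mbp was at 123 and 95.6 CPM at control day 7 and control day 21 and Apod at 717 and 462, log2 ratios of -0.36 and -0.64 that did not reach 2-fold. Gpr37l1 was at 38.5 and 119, Ogn at 78.7 and 242 and Plekhb1 at 137 and 280 in the same barcodes, with log2 ratios of 1.63, 1.62 and 1.03. The share of all genes past 2-fold in these barcodes was not counted. They also differed in Mki67 or Top2a, with 1584 barcodes with and 799 without at control day 7, and 105 and 179 at control day 21. Over all depths the shares with were 46.8% and 46.2%. The part of this difference in the ratios was not tested. Over all 5 libraries at this depth Apod was at 737, 717, 1427, 462 and 837 CPM, the last of which was 464 without the barcode with 845 UMIs. Mbp was at 144, 123, 78.9, 95.6 and 77.6 CPM. The median depth of all tumor barcodes was 7411.5 UMIs at control day 7 and 22158 at control day 21, and fewer barcodes that express a gene cannot be told apart from less RNA of it per barcode in the summed levels.

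**Figure D5:**
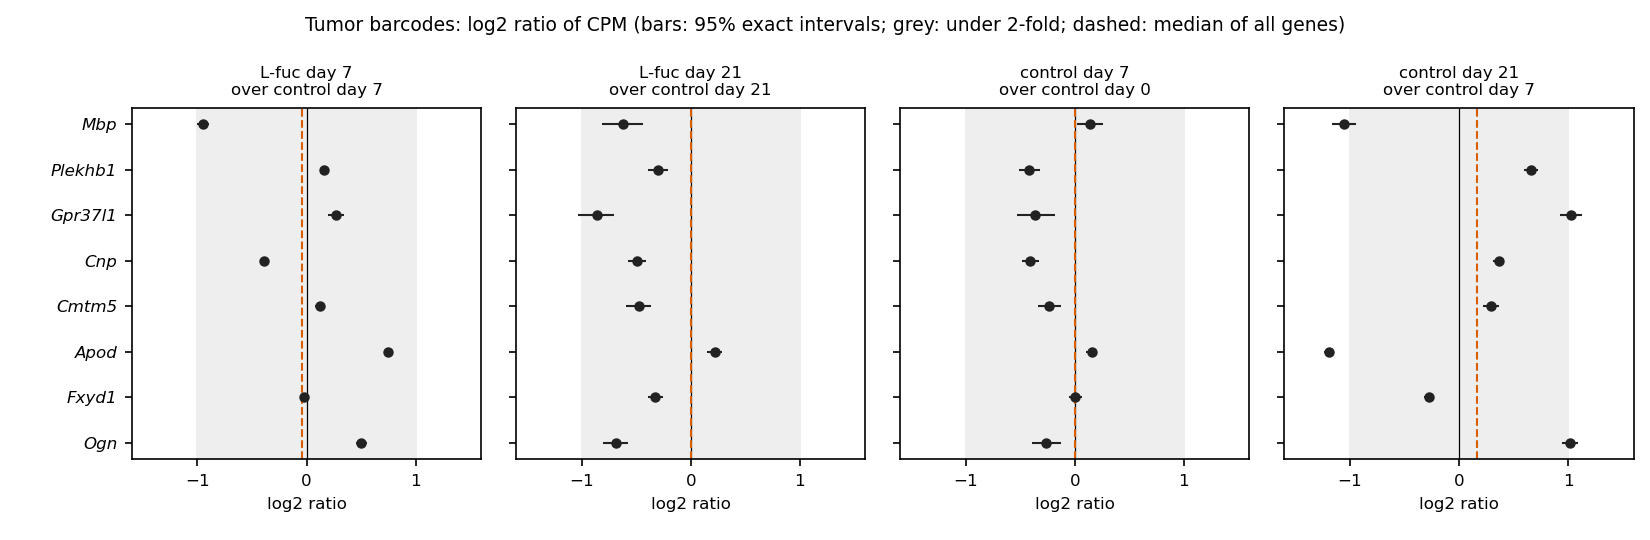
Log2 ratio of CPM in tumor barcodes for the 4 comparisons of libraries, with 95% exact intervals, the 2-fold limits as the edge of the grey area and the median of all genes as a dashed line. In control day 21 over control day 7, but in none of the other 3 panels, points lie outside the grey area, Gpr37l1 and Ogn to the right and Mbp and Apod to the left.

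Other genes of the myelin sheath had a list median below 0 in all 4 comparisons. Of 19 listed genes without the 8, 15 could be compared at day 7, and 0 were at least 2-fold higher and 1 lower with L-fuc, Cldn19 with 14.4 against 30.9 CPM, at a list median of -0.50. At day 21, 13 were compared, with 0 higher and 1 lower, Pllp on 4 against 15 UMIs, at a median of -0.37. From control day 0 to day 7, 15 were compared with 0 higher and 2 lower, Mag and Ncmap with 2 UMIs each at day 0, at a median of -0.34. Both calls come from the pseudocount of 1 UMI, since the levels without it, 0.304 against 0.437 CPM and 0.263 against 0.437, were less than 2-fold apart. From control day 7 to day 21, 15 were compared with 0 higher and 4 lower, namely Cldn19 (9.68 against 30.9 CPM), Prx (22.3 against 46.2), Pmp2, a lipid carrier of myelin (25.03 against 64.8), and Mag with 0 against 22 UMIs, at a median of -0.13.

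Among 11 transcription factors of Schwann cells and the neural crest, 10, 9, 9 and 9 could be compared in the 4 comparisons in the order used above. None was past 2-fold with L-fuc at either time or between control day 0 and day 7, at medians of 0.00, -0.03 and 0.01. From control day 7 to day 21, 3 were higher and 0 lower, at a median of 0.28. These were Egr2 (122 against 46.6 CPM), Foxd3, a factor of the early neural crest (200.2 against 84.3), and Jun, a factor of injured Schwann cells that also responds to stress (1439 against 448). Of 19 genes of immature and repair Schwann cells, 14, 13, 14 and 14 were compared, with 0, 1, 1 and 1 higher and 1, 0, 0 and 2 lower. Most rested on few UMIs, such as Ngfr at day 21 with 24 UMIs at L-fuc and 7 at control, and Scn7a with at most 34 UMIs in any library. Ngfr was also lower at control day 21 than at control day 7, with 0.651 against 4.17 CPM. Gfap, an intermediate filament of glia, was higher at control day 21 with 7.35 against 3.52 CPM.

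The families of the other members were read in the same way. Of 9 small leucine-rich proteoglycans, 6 were compared from control day 7 to day 21, and 3 were higher, Prelp (234 against 82.8 CPM), Bgn (164 against 76.2) and Epyc (0.745 against 0.401 CPM, on 8 and 29 UMIs, past 2-fold with the pseudocount of 1 UMI and not without it), and 1 was lower, Aspn on 1 against 50 UMIs, at a median of 0.98. The same list had 0 higher and 1 lower of 7 with L-fuc at day 7, 0 of 5 at day 21, and 0 higher and 1 lower of 6 from control day 0 to day 7. Ogn was therefore not the single proteoglycan past 2-fold between the control libraries. Of 11 genes of the FXYD family and the sodium pump, 9 were compared from control day 7 to day 21, with Atp1b2, a pump subunit of glia, higher (81.3 against 38.1 CPM) and 4 lower, of which Fxyd5 (59.7 against 164) was the only one with over 100 UMIs. In the other comparisons of this family, Fxyd6 was lower at L-fuc day 7 and Fxyd7 and Atp1b1 were higher at control day 7 than at day 0, on at most 83 UMIs. Of 6 CMTM genes, 0 were higher in the 4 comparisons and Cmtm8 was lower at L-fuc day 7 and at control day 21, on at most 19 UMIs. Of the prosaposin list, Psap itself was at 502, 432, 441, 535 and 447 CPM, under 2-fold apart in each comparison, and Gpr37, the relative of Gpr37l1, had at most 1 UMI.

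Of 12 melanocyte genes, 7, 5, 7 and 7 were compared, with 0, 0, 0 and 1 higher and 1, 2, 1 and 1 lower. Tyrp1 was lower with L-fuc at day 21, at 14.8 against 30.5 CPM, and the others past 2-fold had at most 70 UMIs in a library. The gene that was higher, Slc45a2 on 3 against 11 UMIs, was past 2-fold through the pseudocount alone. The lists were chosen with earlier results of these libraries known, and with 1 library per condition their counts stand beside those of all genes given above without a test.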

How the data were processed

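Single-cell RNA of 5 pooled SW1 tumor samples was used, and the receptor libraries were not used here. The authors aligned reads to mm10 with Cell Ranger (3.0 in the submitters' processing notes, 7.1.0 in the matrix headers) and deposited raw UMI counts for each gene and barcode. The notes also name Seurat 4.0. Barcodes with at least 500 genes and at most 10% mitochondrial UMIs were kept, and gated by Sox10 and Ptprc. Raw counts were summed per library and gate and scaled to a total of 1000000 (CPM). Log2 ratios used a pseudocount of 1 UMI and were computed for genes whose summed UMIs reached 10, and a gene was called at 2-fold. Doublets were not removed in the values given. As an alternative, 2, 256, 65, 2 and 3 kept barcodes were removed by doublet scores of Scrublet (scanpy 1.11.5), at an expected rate of 0.08% per 1000 barcodes. In both libraries of day 7 its automatic threshold marked 0 barcodes. There the barcodes with the highest scores were removed up to the expected share, so 256 and 65 follow from the assumed rate. Marker-gated classes needed at least 2 UMIs of their markers, and a barcode could belong to several classes. Random thinning used a fixed seed. Ratios and intervals were tested on simulated counts. The software was numpy 2.4.6, scipy 1.17.1, pandas 2.3.3 and matplotlib 3.10.9 under Python 3.11.15.

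The members and lists were chosen with earlier results of these data known. All 8 members are named. Other genes are named when they lie past 2-fold in a list, define a list, or have the highest correlations (5 with the mean of the members, 3 with each). Some are named from the comparison of barcodes rich in Mbp. The barcodes rich in Mbp, the splits by Mki67, Top2a, Car9 and Pgf, and the alternatives at 10000 to 30000 UMIs, without control day 7, for L-fuc day 7 alone, without the barcode richest in Apod in each library and against leukocytes with Sox10 at 0 were added after seeing the data. With 1 library per condition no p-value is given. The instrument, the mice per arm, and the dose differ between parts of the labels, one of which gives another unit for L-fuc, and the time of tumor growth differs between the labels and the study's methods. Some markers and list genes are not reported here by name.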

Additional observations from a re-analysis of the deposited data

Results flagged for a closer look

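For 4 of the 8 genes the ratio of L-fuc over control had opposite signs at the 2 time points. The log2 ratio at day 7 minus that at day 21 was 0.459 for Plekhb1, 1.13 for Gpr37l1, 0.597 for Cmtm5 and 1.19 for Ogn. Each ratio compares 1 library with 1 library, so the difference was not tested. The share of all genes with opposite signs was not counted, so 4 of 8 cannot be read as a trait of these genes. Over the 14 settings described below, the lowest day 7 ratios of Plekhb1, Gpr37l1 and Cmtm5 were 0.04, 0.03 and 0.02, and that of Ogn was 0.43. Gpr37l1 and Ogn were also the genes past 2-fold higher in control day 21 over control day 7, and control day 21 is the denominator of the later ratio.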

How the results depend on the processing

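No paired analysis was possible because every condition has 1 pooled library and replicate numbers only follow the order of deposit. The count of genes at least 2-fold apart was unchanged at 0 for L-fuc over control at day 7 and for control day 7 over day 0 in the 14 settings tried. For L-fuc over control at day 21 it was 1 in place of 0 (Gpr37l1) when barcodes with leukocyte genes were left out of the Sox10 gate (log2 ratio -1.52) and when single barcodes were averaged (-1.01). For control day 21 over day 7 it was 1 in place of 4 without barcodes with leukocyte genes (Apod, -1.32), 2 without cycling barcodes (both higher) and 2 when centred on the median of all genes (both lower). In that comparison the calls of 3 of the 8 genes also changed at matched depth, and that of 1 gene changed with the gate of S100b, Cdh19 or Erbb3, after thinning and when single barcodes were averaged. The stricter gate left 124, 762, 756, 73 and 61 barcodes, and its genes include Fcer1g, at 642 to 1330 CPM in tumor barcodes. This gate therefore cannot be read as leaving out leukocyte RNA alone. Genes at least 2-fold above Ptprc-positive barcodes in every library were 1 with that gate, 1 after thinning, 3 when single barcodes were averaged, 4 without cycling barcodes, 7 against Sox10 at 0 and 7 without control day 7, in place of 0. Pairs at 1.5 times the product of shares in both libraries of day 7 were 1 in place of 0 in a second random draw of the thinning (Gpr37l1 with Ogn, 1.51 and 1.63), where the draw used above gave 0. The direction of Fxyd1 held in 8 (L-fuc day 7), 13 (L-fuc day 21) and 7 (control day 7 over day 0) of the 14 settings, and in the last comparison that of Mbp in 12, Apod in 9 and Ogn in 13. Apod at L-fuc day 21 kept its direction in 13 and turned to -0.15 over all depths without the barcode richest in Apod. The others kept theirs in all 14. The cause of these changes was not tested. Genes at 0 in leukocytes are limited by depth to under 3 counts.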
